A study of Mus musculus with 8 samples.

Results

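The homeobox genes Nkx2-1 and Nkx2-9 and the paired-box gene Pax9 lie side by side on mouse chromosome 12, and the histone mark H3K27me3 was followed over them in livers of male CD-1 mice aged 7 weeks. The cluster was taken as an approximate mm9 window of 240 kb, chr12:57600001-57840000, with 200 kb on either side, and its 3 genes are 3 of 21900 protein-coding genes in the RefSeq table of the mouse. Mice of the vehicle group received 1% DMSO in corn oil, and mice of the TCPOBOP group received TCPOBOP at 3 mg/kg, an agonist of the nuclear receptor CAR. Livers were taken 3 h later. Chromatin fragments of 600 to 1100 bp gave 3 vehicle and 3 TCPOBOP libraries, each from 1 liver, and fragments over 1100 bp gave 1 further library from the ChIP sample of replicate 1 of each treatment. The shorter class was brought to 500 bp and the longer to 200 bp before sequencing. CD-1 is an outbred stock, so livers of a group also differ in genotype, and whole liver holds several cell types, so fewer marked cells and less mark per cell cannot be told apart.

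H3K27me3 is laid down by Polycomb repressive complex 2 and spreads in broad domains over developmental regulators that a tissue keeps silent. Nkx2-1 encodes a transcription factor of thyroid, lung and ventral forebrain, Nkx2-9 one of the ventral neural tube, and Pax9 one of the pharyngeal pouches, teeth and axial skeleton. The cluster has a paralogous counterpart on chromosome 2, which holds Nkx2-4, Nkx2-2 and Pax1. In the gene order of GRCm38.p6, the next protein-coding gene before Nkx2-1 is Mbip and the next after Pax9 is Slc25a21, followed at some distance by Foxa1, a forkhead factor gene active in hepatocytes.

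The starts of Nkx2-1, Nkx2-9 and Pax9 are shown here, since CG-rich starts are known as sites where Polycomb complexes gather. Each RefSeq sequence of build GRCm38.p6 runs from 250 bases before to 50 bases after the start, on the gene's own strand, with every CG in capitals. The positions are Nkx2-1 at chr12:56536859-56537158 on the minus strand, Nkx2-9 at chr12:56613235-56613534 on the minus strand and Pax9 at chr12:56695221-56695520 on the plus strand. These positions are of another build than the islands and cannot be set against them.
Nkx2-1: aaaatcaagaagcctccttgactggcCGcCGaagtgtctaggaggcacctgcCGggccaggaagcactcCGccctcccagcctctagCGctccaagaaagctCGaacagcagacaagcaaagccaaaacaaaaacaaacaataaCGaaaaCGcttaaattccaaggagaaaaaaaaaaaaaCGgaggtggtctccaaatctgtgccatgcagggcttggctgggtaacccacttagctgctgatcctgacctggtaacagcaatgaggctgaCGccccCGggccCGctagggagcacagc
Nkx2-9: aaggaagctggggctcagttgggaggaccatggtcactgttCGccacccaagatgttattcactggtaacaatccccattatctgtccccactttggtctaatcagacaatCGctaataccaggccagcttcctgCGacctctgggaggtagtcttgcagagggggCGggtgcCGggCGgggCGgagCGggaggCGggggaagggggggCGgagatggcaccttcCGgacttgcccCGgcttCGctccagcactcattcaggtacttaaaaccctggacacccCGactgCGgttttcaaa
Pax9: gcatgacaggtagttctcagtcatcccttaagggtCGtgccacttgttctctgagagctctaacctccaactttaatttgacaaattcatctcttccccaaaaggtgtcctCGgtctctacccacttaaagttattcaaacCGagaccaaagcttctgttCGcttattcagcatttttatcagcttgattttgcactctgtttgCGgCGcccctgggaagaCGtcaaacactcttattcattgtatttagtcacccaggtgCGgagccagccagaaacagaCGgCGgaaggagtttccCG
The letters CG, which read the same on both strands and do not overlap themselves, occurred 12 times at Nkx2-1, 15 times at Nkx2-9 and 11 times at Pax9. Over all 32851 promoters of that table, of 27025 gene symbols, the median was 7. As many CGs or more were held by 39.6% of them for Nkx2-1, 34.6% for Nkx2-9 and 41.4% for Pax9, so these starts were above the median in CG but not among the richest. At the paralogous genes the counts were 38 for Nkx2-4, 17 for Nkx2-2 and 13 for Pax1.

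The deposited data of a library are its islands, stretches in which H3K27me3 reads pass a background, with the authors' own score for each. The 6 lists of 600 to 1100 bp fragments held 6295 to 14748 islands over 174 to 340 Mb, and the 2 lists of fragments over 1100 bp held 17577 and 22077 over 654 and 676 Mb. The lists hold no read counts, so the depth of each library is unknown here, and an island's presence says nothing of its height. Between 3 and 5 islands of each list overlapped the window. In the liver check, the HoxA window, a classical Polycomb target, was 100% covered in all 8 libraries, and the window over Alb and Afp, serum protein genes of hepatocytes, was 0% covered in all 8.

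Nkx2-1, Nkx2-9 and Pax9 each carried H3K27me3 in all 6 livers, as separate islands and not as 1 continuous domain. Cover of the window was 58.2, 72 and 53.8% in vehicle replicates 1 to 3, the order used throughout, and 60.8, 62.7 and 48.3% in TCPOBOP replicates 1 to 3. Vehicle replicate 2 was the highest and TCPOBOP replicate 3, the list with the fewest islands, the lowest, and the treatments overlapped. Among 10278 autosomal tiles of the same 240 kb, 1.66% were covered as much or more in the mean of the 6 livers, where the median tile had 2.83%. Library by library, 1.05 to 6.34% of tiles were covered as much as the window.

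**Figure D1:**
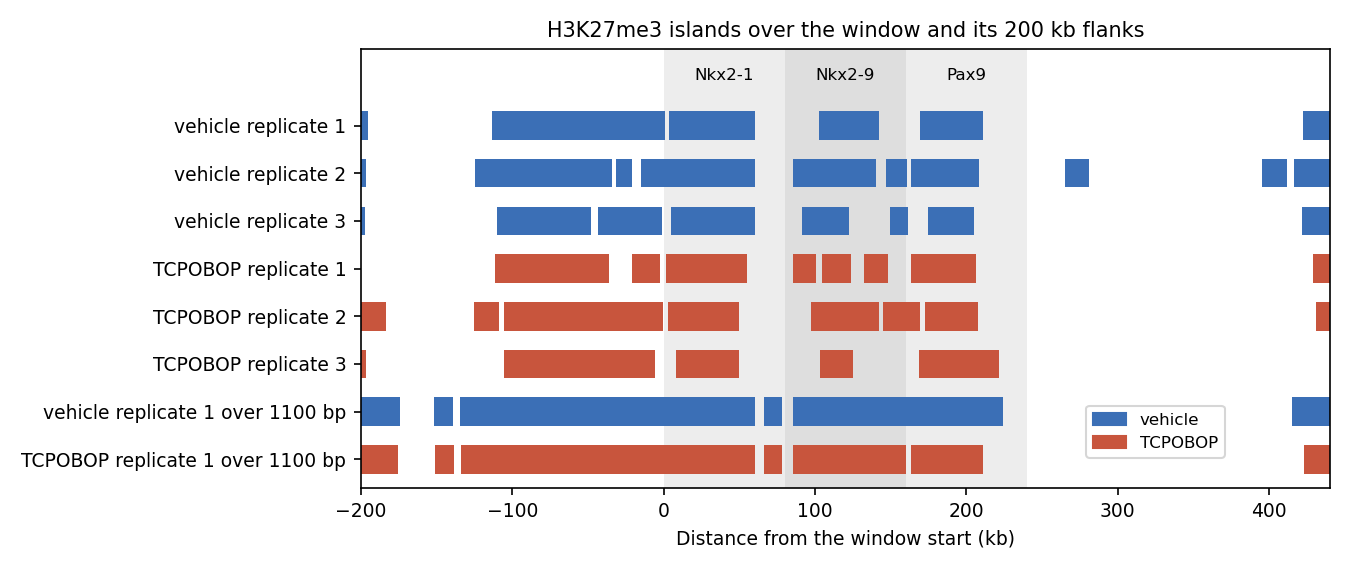
H3K27me3 islands (bars) in each of the 8 libraries over the window and its flanks; the x axis is the distance from the window start in kb, the shaded areas are the segments that hold Nkx2-1, Nkx2-9 and Pax9, and colour marks the treatment. Every list has islands in each segment, and in the right flank 2 islands of vehicle replicate 2 precede those at its far end.

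Stretches covered in all 6 livers summed to 90 kb, or 37.5% of the window, and formed 1 block in each of 3 equal segments, named here by the gene they hold. These cores were 41.6 kb in the Nkx2-1 segment (chr12:57608001-57649600), 18 kb in the Nkx2-9 segment (chr12:57704401-57722400) and 30.4 kb in the Pax9 segment (chr12:57774801-57805200). All 3 cores were also covered in both libraries of fragments over 1100 bp. Below, the island over a gene is the island at the middle of the core in that gene's segment. It was thus picked by cover shared in all 6 livers and not by the position of the gene. A further 44.2% of the window was covered in 1 to 5 of the 6 livers, and 18.3% in none. The widest empty stretch inside the window, 25.2 kb at chr12:57660401-57685600, separated the Nkx2-1 islands from the Nkx2-9 islands in all 6 livers.

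The 3 segments of the window, each 80 kb and holding 1 of the genes, differed in how steadily they were covered. Cover of the Nkx2-1 segment was 72, 75.5 and 69.5% with vehicle and 66.5, 58.5 and 52% with TCPOBOP. The Nkx2-9 segment was 50, 84 and 52.5% covered with vehicle and 62.5, 74.5 and 27.5% with TCPOBOP. The Pax9 segment was 52.5, 56.5 and 39.5% covered with vehicle and 53.5, 55 and 65.5% with TCPOBOP. The Nkx2-9 segment thus varied most, from 27.5 to 84% over the 6 livers, against 52 to 75.5% in the Nkx2-1 segment and 39.5 to 65.5% in the Pax9 segment. TCPOBOP replicate 3 was lowest in the Nkx2-1 and Nkx2-9 segments and highest in the Pax9 segment.

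Means of the segments over the 6 livers were 65.7% for Nkx2-1, 58.5% for Nkx2-9 and 53.8% for Pax9. Paired within livers, the Nkx2-1 segment exceeded the Pax9 segment in 5 of 6 livers by 11.9 percentage points on average, from -13.5 to 30 in single livers (two-sided exact paired permutation p = 0.125, adjusted over 7 comparisons 0.219). The Nkx2-1 segment exceeded the Nkx2-9 segment in 4 of 6 livers, by 7.17 percentage points on average (exact paired permutation p = 0.344, adjusted 0.481), and by 16.2 at equal covered length (adjusted p of the exact paired permutation test 0.0547). The Pax9 segment differed from the Nkx2-9 segment by -4.75 percentage points (exact paired permutation p = 0.656, adjusted 0.656). On the full lists each of these differences changed sign between livers. At equal covered length the Nkx2-1 segment was above the Nkx2-9 segment in every liver, the case in which this test gives its smallest p.

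**Figure D2:**
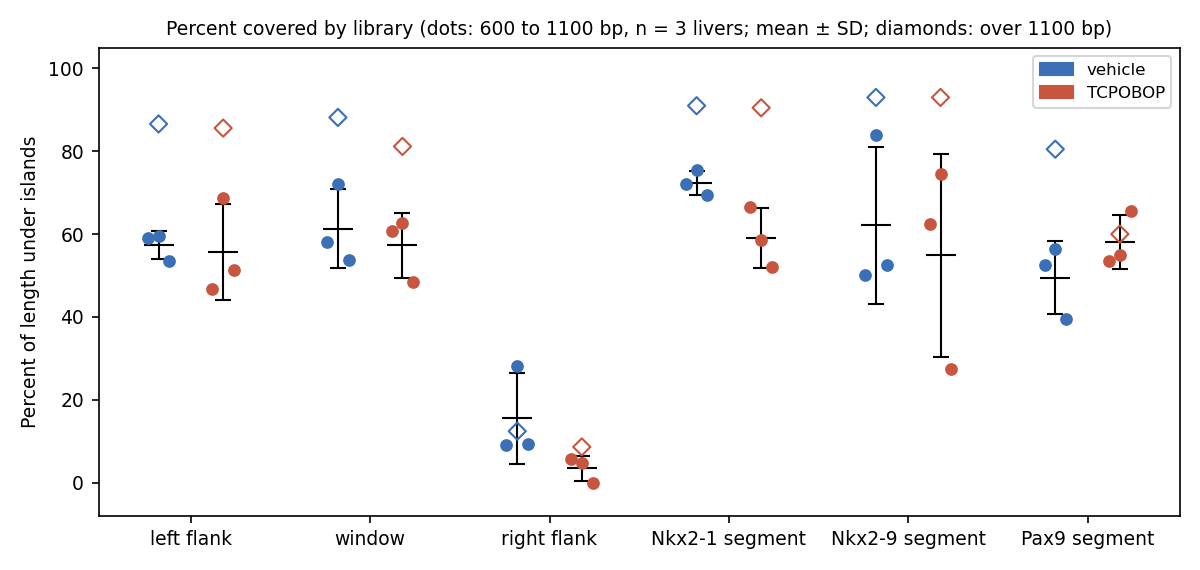
Percent of length under islands (y axis) in the flanks, the window and its segments. Dots are the 600 to 1100 bp libraries, 3 livers per treatment, with mean and SD; open diamonds are the libraries of fragments over 1100 bp. In the right flank the libraries lie between 0 and 28.2%.

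The cover reached past the window on the Nkx2-1 side and stopped on the Pax9 side. Cover of the left flank was 59, 59.6 and 53.4% with vehicle and 46.8, 68.8 and 51.4% with TCPOBOP. Cover of the right flank was 9, 28.2 and 9.2% with vehicle and 5.6, 4.6 and 0% with TCPOBOP. In every liver the right flank was the lower. The window exceeded the right flank by 49.9 percentage points, from 43.8 to 58.1 in single livers, and the left flank exceeded it by 47.1, from 31.4 to 64.2. Both differences had the same sign in 6 of 6 livers and reached the smallest p of the exact paired permutation test, 0.0312, which was 0.0729 after adjustment over 7 comparisons. The window and the left flank differed by 2.81 percentage points (3 of 6 livers higher in the window, exact paired permutation p = 0.469, adjusted 0.547).

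In the left flank, 57.2 kb at chr12:57494801-57552000 lay under islands in all 8 libraries, followed by shared stretches of 7.6 and 9.6 kb. The islands over the 57.2 kb stretch ranked in the top 0.970 to 2.68% of their lists by score in the 600 to 1100 bp libraries, where the Nkx2-1 islands ranked in the top 1.47 to 4.24%. Farther out, 58.4 kb at chr12:57416401-57474800 held no island in any of the 6 livers. On the other side, 114 kb at chr12:57881201-57995200 held none in any of the 8 libraries. The Pax9 islands ended between 205 and 221 kb from the window start, so the outer end of the cluster's cover fell inside the Pax9 segment in all 6 livers.

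By score, the islands over Pax9 and Nkx2-1 stood near the top of each of the 6 lists of 600 to 1100 bp, and those over Nkx2-9 lower. The Pax9 island ranked 196 of 10057, 140 of 14748 and 182 of 12430 in the vehicle livers and 108 of 13759, 244 of 10197 and 93 of 6295 in the TCPOBOP livers. That is within the top 0.785 to 2.39% of each list. The Nkx2-1 island ranked 319, 217 and 283 in the vehicle lists and 220, 286 and 267 in the TCPOBOP lists, or the top 1.47 to 4.24%. The Nkx2-9 island ranked 2063, 812 and 1571, then 1647, 952 and 2427, or the top 5.51 to 38.6%. Within each of the 6 lists the order was Pax9, Nkx2-1, Nkx2-9. These islands were picked by cover shared in all 6 livers but ranked against whole lists. How islands over other shared stretches of the genome rank was not counted.

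Per kb of island the same order held in each of the 6 lists. By score per kb the Pax9 island was in the top 0.398 to 2.81% of its list, the Nkx2-1 island in the top 3.60 to 24.2% and the Nkx2-9 island in the top 10.8 to 58.3%. In vehicle replicate 1 the authors' score per kb was 31.3 for Pax9, 18.4 for Nkx2-1 and 8.41 for Nkx2-9. In TCPOBOP replicate 3 it was 11.7, 9.63 and 5.85. Scores depend on each library's own background, so these values are compared only within a list. By width alone Pax9 did not stand out, at the top 4.40 to 21.2% of each list.

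**Figure D3:**
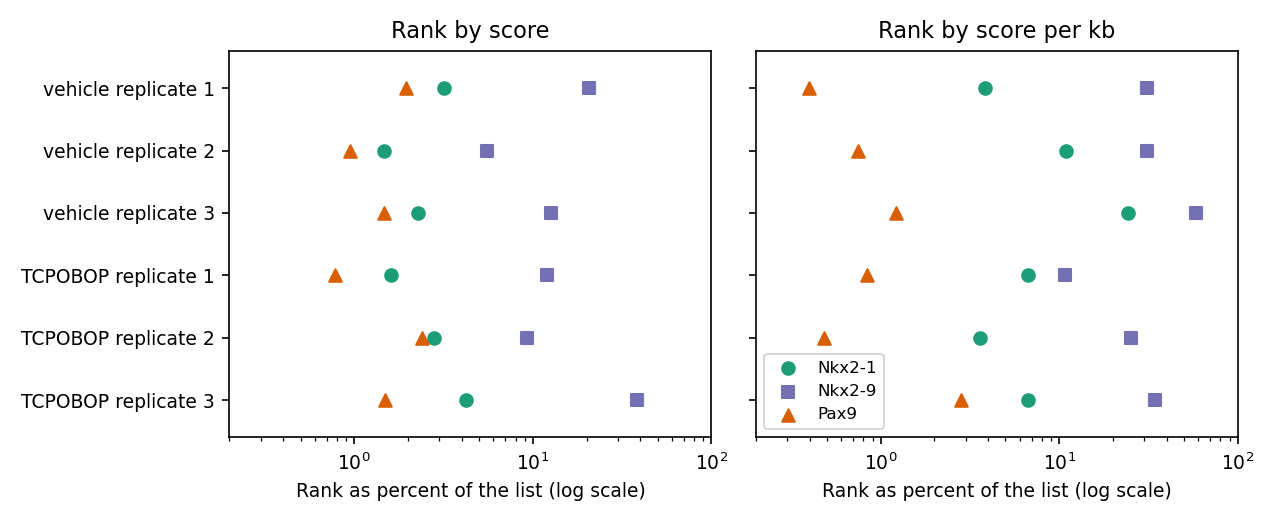
Rank of the island over each gene within its list, by the authors' score (left) and by score per kb (right), for the 6 libraries of 600 to 1100 bp. The x axis gives the rank as a percent of all islands of that list on a log scale, so the highest islands are at the left. Pax9 lies left of Nkx2-1, and Nkx2-1 left of Nkx2-9, in each list.

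Between treatments, the window as a whole did not differ beyond the spread of livers. Mean cover was 61.3 ± 9.49% with vehicle and 57.3 ± 7.80% with TCPOBOP (SD over 3 livers), and the difference, -4.06 percentage points, had a two-sided exact permutation p of 0.6, adjusted 1 over 6457 tiles. Of these tiles of 240 kb, 4.43% were lower and 1.52% higher in every TCPOBOP than in every vehicle liver. With 3 livers against 3 the smallest p this test allows is 0.1. The direction turned without vehicle replicate 2 (1.28) or without TCPOBOP replicate 3 (0.417), and the difference was -7.72 at equal covered length (exact permutation p = 0.2). Of the 3 segments, that of Nkx2-1 was lower in every TCPOBOP than in every vehicle liver, a pattern that 4% of covered 80 kb tiles showed, with 1.34% showing the reverse. It averaged 72.3 ± 3.01% with vehicle against 59 ± 7.26% with TCPOBOP (SD over 3 livers). The difference of -13.3 percentage points had an exact permutation p of 0.1, adjusted 1 over 13933 tiles. With both fragment classes of replicate 1 joined, the Nkx2-1 segment had 91, 75.5 and 69.5% against 90.5, 58.5 and 52%, and the treatments overlapped (difference -11.7, exact permutation p = 0.4). Replicates 2 and 3 had only the shorter class, so joined values set unlike fragment classes side by side. This overlap therefore cannot decide whether the separation holds, and the same limit applies to the joined values below. The limma fit over all 80 kb tiles gave a standard error of 8.61 and an adjusted p of 0.855.

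The Nkx2-9 segment averaged 62.2 ± 18.9% with vehicle against 54.8 ± 24.4% with TCPOBOP (SD over 3 livers; the exact permutation p was 0.8, adjusted 1). Its difference, -7.33 percentage points, became 6.33 without TCPOBOP replicate 3, 3.58 without vehicle replicate 2 and -14.8 at equal covered length. The Pax9 segment averaged 49.5 ± 8.89% with vehicle against 58 ± 6.54% with TCPOBOP (SD over 3 livers; the exact permutation p was 0.4, adjusted 1), with a difference of 8.5 percentage points that was 3.5 without vehicle replicate 3 and 1.33 with both fragment classes of replicate 1 joined. Both segments overlapped between treatments.

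Within the Nkx2-1 segment the treatments separated at the end of the island that faces Nkx2-9, and overlapped at its start. The Nkx2-1 island ended at chr12:57660400, 60.4 kb from the window start, in all 3 vehicle livers, to the same 400 bp step. In the TCPOBOP livers it ended 54.8, 49.6 and 49.6 kb from the window start, so every TCPOBOP end lay before the vehicle ends. The difference was -9.07 kb (exact permutation p = 0.1, adjusted 1 over 5730 islands). Among these 5730 sets of islands that lie over a stretch covered in all 6 livers, 3.75% showed an end lower and 2.83% an end higher in every TCPOBOP liver. An end shared by all 3 vehicle livers occurred in 58 of them, 1.01%, and both together in 6.

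A stretch of 5.6 kb before that end was covered in all vehicle and no TCPOBOP livers, 2.33% of the window, and no stretch of the window showed the reverse. This stretch restates the separation of the ends, and how common such stretches are over the genome was not counted. In the library of fragments over 1100 bp from TCPOBOP replicate 1, however, the island ran to the same 57660400 as in the vehicle livers. Once the islands of both fragment classes were joined for replicate 1 alone, the treatments overlapped, with ends at 60.4, 49.6 and 49.6 kb in the TCPOBOP livers and a difference of -7.2 kb (exact permutation p = 0.4). The end at 60.4 kb comes from the longer class, which replicates 2 and 3 lack. This overlap thus does not decide whether the ends separate. Among the 3 libraries with the wider median island the difference was -10.8 kb, and among the 3 with the narrower -5.6 kb, a direction that the lack of overlap fixes beforehand.

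The start of the Nkx2-1 island did not separate the treatments. It lay 3.6, -15.2 and 4.8 kb from the window start with vehicle and 1.6, 2.8 and 8 kb with TCPOBOP (exact permutation p = 0.6, adjusted 1), where 2.64% of the 5730 sets had a start lower and 3.14% a start higher in every TCPOBOP liver. Only vehicle replicate 2 had an island that joined the Nkx2-1 domain to part of the left flank. The width of the Nkx2-1 island was 56.8, 75.6 and 55.6 kb with vehicle and 53.2, 46.8 and 41.6 kb with TCPOBOP, without overlap. Of the 5730 sets 2.93% were narrower and 1.92% wider in every TCPOBOP liver. The difference was -15.5 kb (exact permutation p = 0.1, adjusted 1), and it was -9 kb without vehicle replicate 2. With both fragment classes of replicate 1 joined, the widths were 195.2, 75.6 and 55.6 kb against 194.4, 46.8 and 41.6 kb, which overlap (exact permutation p = 0.5).

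The Nkx2-9 island started 102, 85.6 and 91.2 kb from the window start with vehicle and 104, 97.2 and 103 kb with TCPOBOP (exact permutation p = 0.2, adjusted 1). It ended at 142, 140 and 122 kb with vehicle and at 124, 142 and 125 kb with TCPOBOP (exact permutation p = 0.9, adjusted 1). In TCPOBOP replicate 1 the Nkx2-9 segment held 3 islands of 14.8, 19.2 and 16 kb, the middle one over the core. In vehicle replicate 2 it held an island of 54.4 kb over the core and another of 13.6 kb that ran just past the segment's end.

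The Pax9 island started 169, 164 and 175 kb from the window start with vehicle and 164, 173 and 169 kb with TCPOBOP (exact permutation p = 0.8, adjusted 1). It ended at 211, 208 and 205 kb with vehicle and at 206, 208 and 221 kb with TCPOBOP (exact permutation p = 0.7, adjusted 1). Both Pax9 edges overlapped between treatments. Over the 6 livers the SD of the Pax9 start was 4.61 kb and of its end 5.88 kb. The median SD over the 5730 sets was 8.94 kb for starts and 8.85 kb for ends. An SD as small or smaller was found in 24.6% of the sets for starts and in 32.4% for ends. The SD of the Nkx2-1 end, 5.32 kb, was below that of the Pax9 end. The most variable edge of the 3 islands was the end over Nkx2-9, with an SD of 9.79 kb.

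**Figure D4:**
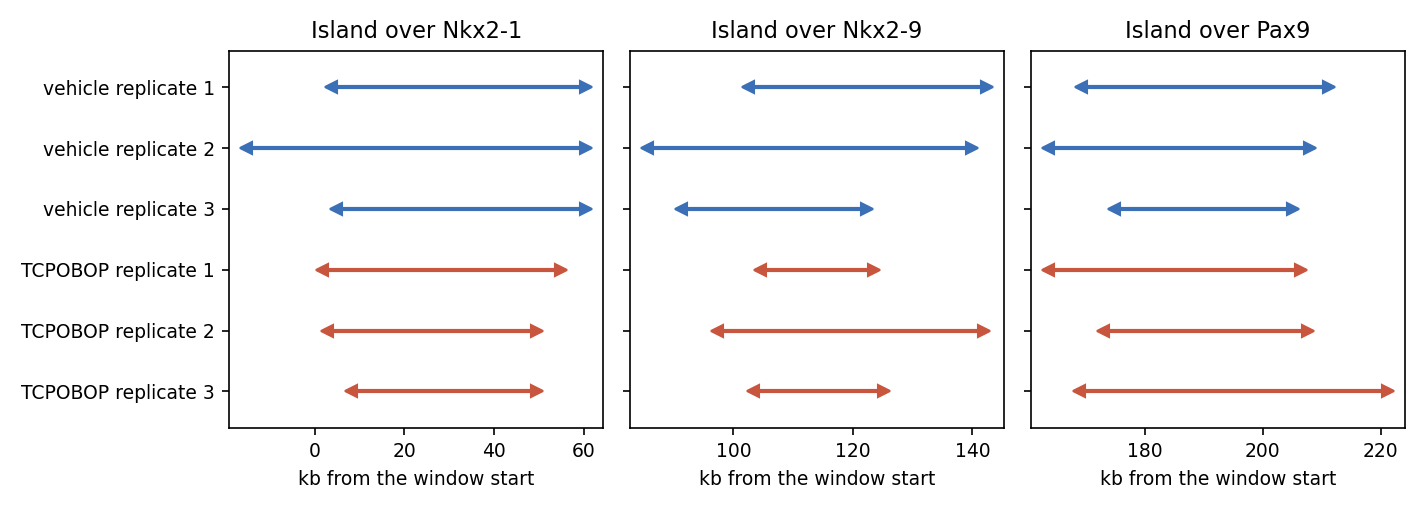
Start and end (arrowheads) of the island over each gene, taken at the middle of its core, in the 6 libraries of 600 to 1100 bp. Values are in kb from the window start, colour marks the treatment (blue vehicle, red TCPOBOP) and each panel has its own x range. The Nkx2-1 islands of the vehicle livers end together at 60.4 kb, and those of the TCPOBOP livers at 49.6 to 54.8 kb.

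The outermost start and end of all islands that overlap the window did not separate the treatments. The outer start differed by 45.5 kb (exact permutation p = 0.3), and this value rested on vehicle replicate 1, where an island of the left flank reached just into the window. Without that liver the difference was 9.33 kb. The outer end differed by 3.6 kb (exact permutation p = 0.7). The island with most bases in the window averaged 62.7 ± 11.2 kb with vehicle against 50.8 ± 3.49 kb with TCPOBOP (SD over 3 livers, exact permutation p = 0.1). Every TCPOBOP liver lay below every vehicle liver, but the share of other windows that do so was not counted. With both fragment classes of replicate 1 joined, the values were 138.8, 75.6 and 55.6 kb against 74.8, 46.8 and 52.4 kb, which overlap (difference -32 kb, exact permutation p = 0.2). In 5 livers this was the Nkx2-1 island and in TCPOBOP replicate 3 the Pax9 island.

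The flanks showed 1 separation. The right flank was lower in every TCPOBOP than in every vehicle liver, as were 4.52% of covered 200 kb tiles on the same grid, with 1.48% higher. It averaged 15.5 ± 11.0% with vehicle against 3.4 ± 2.99% with TCPOBOP (SD over 3 livers). The difference of -12.1 percentage points had an exact permutation p of 0.1, adjusted 1 over 7360 tiles, and was -5.7 without vehicle replicate 2. At equal covered length the treatments overlapped, at 0, 19.8 and 9.2% against 5.6, 0 and 0%. An island at the far end of the flank, running past it, was present in all livers but TCPOBOP replicate 3, and vehicle replicate 2 had further islands of 16 and 16.8 kb. The left flank averaged 57.3 ± 3.42% with vehicle against 55.7 ± 11.6% with TCPOBOP (SD over 3 livers; the exact permutation p was 0.9, adjusted 1), where 4.25% of tiles on its grid were lower and 1.28% higher in every TCPOBOP liver.

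Fragments over 1100 bp showed the same cluster with most gaps closed. With vehicle they covered 88.2% of the window, where 600 to 1100 bp of the same ChIP sample covered 58.2%, and with TCPOBOP 81.2%, where the shorter class covered 60.8%. Within the window and flanks, 100% of the length under 600 to 1100 bp islands was also covered by the longer fragments, in both ChIP samples. The 2 long-fragment lists shared a Jaccard index, the length covered in both over the length covered in either, of 0.921 in the window. No test was made, with 1 library per treatment.

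In these lists the Nkx2-1 island fused with the left flank into 195 kb with vehicle and 194 kb with TCPOBOP, ranking 60 of 17577 and 50 of 22077 by score. Both of these Nkx2-1 islands ended at 57660400. A small island of 12.4 and 12 kb, starting at 57666001 in both, lay in the gap between Nkx2-1 and Nkx2-9 that was empty in all 6 libraries of 600 to 1100 bp. Nkx2-9 and Pax9 shared 1 island of 139 kb in the vehicle liver, from 57685601 to 57824400. In the TCPOBOP liver they had 2, of 74.8 and 47.6 kb, split between 57760400 and 57763201. By score the shared island ranked 218 with vehicle. With TCPOBOP the Nkx2-9 island ranked 530 and the Pax9 island 837 by score, an order opposite to that in the shorter class. By score per kb the order of the shorter class was kept in that TCPOBOP list, with Pax9 at rank 185, Nkx2-1 at 203 and Nkx2-9 at 353. The start at 57685601 recurred in both long-fragment lists, in vehicle replicate 2 and in the first small island of TCPOBOP replicate 1. These lists covered more of the genome, so fragment length and the amount called cannot be told apart.

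Most of the other genes of both families were also covered in the 40 kb around the gene start. Leaving out the cluster's own genes, 3 of 5 NK2 genes were at least 50% covered in all 6 livers, with a median of 78% over the genes' own medians, and 6 of 8 Pax genes, with a median of 94.8%. With Nkx2-1, Nkx2-9 and Pax9 counted, it was 5 of 7 and 7 of 9. Of all 61726 autosomal tiles of 40 kb, 2.40% met this mark and the median was 0%. These tiles lie on a fixed grid and not around gene starts, and the share for windows around all gene starts was not counted. Nkx2-3, a gene of gut and spleen development, and Pax3, of neural crest and muscle, were 100% covered in every library. Nkx2-1 had a median of 99.8% (86.5 to 100%), Nkx2-9 of 75% (55 to 100%) and Pax9 of 82% (75.5 to 100%), so the Nkx2-9 start lay just below the NK2 median.

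The exceptions were Nkx2-4 and Nkx2-6 in the NK2 family, which reached 50% in 4 and 3 of 6 livers, and Pax4 and Pax8 in the Pax family. Pax4, which acts in pancreatic endocrine cells, was covered from 0 to 38%, and Pax8, which acts in thyroid and kidney, from 0 to 53%. The hepatocyte genes Foxa1 and Foxa2 were covered less steadily than the cluster, Foxa1 from 0 to 65% and Foxa2 from 0 to 74%, each reaching 50% in 1 of 6 livers. The positions of these windows are approximate, and the test of each gene against the cluster was not made.

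The paralogous window of 360 kb over Nkx2-4, Nkx2-2 and Pax1 (chr2:146880001-147240000) was covered less than the cluster in every liver. It had 44.9, 58.3 and 29.4% with vehicle and 44.9, 53.7 and 38.4% with TCPOBOP. The cluster exceeded it by 14.4 percentage points, from 9 to 24.4 in single livers (6 of 6 livers, exact paired permutation p = 0.0312, the smallest possible, adjusted 0.0729). Fragments over 1100 bp covered 90 and 88.2% of the paralogous window, against 88.2 and 81.2% of the Nkx2-1, Nkx2-9 and Pax9 window, so there the order was not kept. The window edges were set by hand, and how far they set this difference was not tested.

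**Figure D5:**
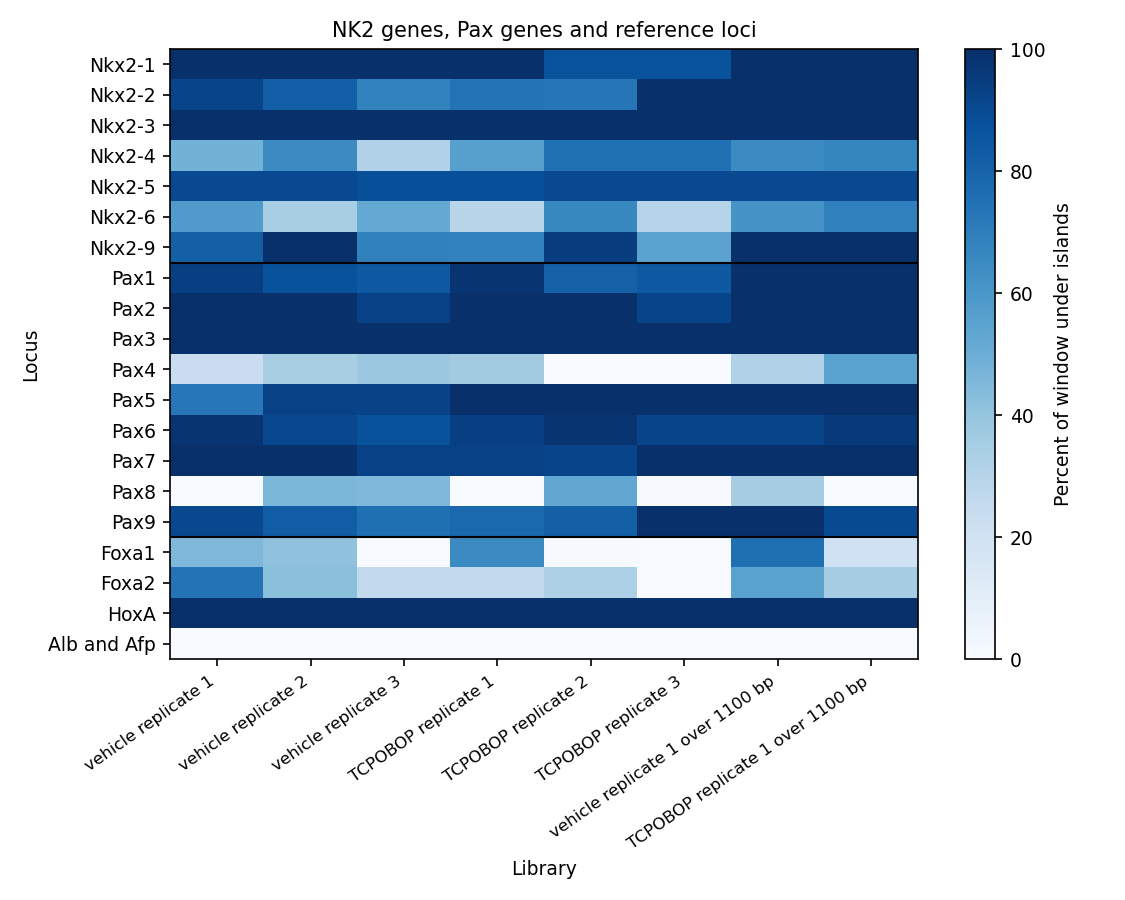
Percent of the window under islands (colour, 0 to 100) for NK2 genes, Pax genes and reference loci (rows) in each of the 8 libraries (columns). Windows are 40 kb around a gene start, 120 kb for HoxA and 60 kb for Alb and Afp. Most NK2 and Pax rows are dark in every library, while Pax4, Pax8, Foxa1 and Foxa2 are pale or uneven and Alb with Afp is at 0.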

How the data were processed

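H3K27me3 ChIP-seq islands of 8 mouse liver libraries were analysed. Bowtie2 2.3.2, SICER 1.1 and the mm9 build appear, without roles, in the submitters' processing notes. The deposited score of each island is the authors' own value for that library. Scores were used to rank or filter within a list, except that 1 score minimum was applied to all lists as an alternative. Window and gap sizes in the file names were 400 and 2400 bp; no listed islands lay closer than 2800 bp. Islands were called per library. The sources used here do not state an input. Coordinates are mm9 and 1-based, and every edge lies on the 400 bp grid.

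The members, lists and windows were chosen with earlier results of these data known. Window positions are approximate, from general knowledge, because the gene table is of GRCm38.p6. The text names the 3 genes, segments, flanks, both gene families, reference loci and neighbouring genes. Taking the 3 islands one by one was decided after seeing the files. Percent covered was compared between treatments with two-sided exact permutation tests over 20 labellings, adjusted (Benjamini-Hochberg) over all autosomal tiles of that width with any cover, and along the locus with sign flips over 6 livers. As an alternative, limma 3.58.1 (R 4.3.3) with a variance trend was fitted over all tiles. Both were run on simulated data to check the calculation. Changes as small as those at the cluster were not simulated, so the power to find them is unknown. Scripts ran under Python 3.11.15 with scipy 1.17.1, pandas 2.3.3, matplotlib 3.10.9 and numpy 2.4.6. No read counts or counting intervals could be given from these lists.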

Additional observations from a re-analysis of the deposited data

How the results depend on the processing

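Alternatives were a score minimum of 100, equal covered length, ChIP samples merged (replicate 1 of each treatment only), shifted edges (window only), islands of at least 10 kb (length covered in all livers only), 1 liver left out, libraries split by median island width, limma and a replicate block. The exact tests between treatments cannot fall below 0.1, so their missing 0.05 says nothing of stability; limma called 0 tiles (187 of the 240 kb tiles had an unadjusted p under 0.05), and its adjusted p at the cluster was 0.855 to 0.987. With 1 liver left out, the difference ranged from -7.81 to 1.28 percentage points for the window, -17.1 to -9.83 for the Nkx2-1 segment, -17.2 to 6.33 for the Nkx2-9 segment, 3.5 to 12 for the Pax9 segment, -8.23 to 2.77 for the left flank and -15.3 to -5.7 for the right flank. It ranged from 9.33 to 68.5 kb for the outer start, -1.13 to 6.27 kb for the outer end, and -15.4 to -5.4 kb for the main island width. For single islands it ranged from -0.0667 to 9.93 kb for the Nkx2-1 start, -3.6 to 2 kb for the Pax9 start, -1.13 to 6.27 kb for the Pax9 end and -0.133 to 8.67 kb for the Pax9 width.

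Among the 3 libraries with the wider median island, the difference turned to 1 for the Nkx2-9 segment and 1.1 for the left flank, and to -2.2 kb for the Nkx2-9 start and 1.6 kb for the Pax9 start. Among the 3 with the narrower it turned to -0.2 kb for the outer end, which is the Pax9 end. With ChIP samples merged it turned to 2.07 for the left flank, 26.9 kb for the Pax9 start and -26.3 kb for the Pax9 width. The left flank also turned to 2.77 and 0.467 without TCPOBOP replicate 1 or 3, the Nkx2-9 segment to 3.58 and 6.33 without vehicle replicate 2 or TCPOBOP replicate 3, and the window to 1.28 and 0.417 without the same livers. The Pax9 start turned to 2 and 1.6 kb without vehicle replicate 3 or TCPOBOP replicate 1, the Pax9 end and width to -1.13 and -0.133 kb without TCPOBOP replicate 3, and the Nkx2-1 start to -0.0667 kb without vehicle replicate 2. The Pax9 segment minus the Nkx2-9 segment turned to 3.08 under the score minimum and to 2.25 at equal covered length. The window difference was -7.33 with the window shortened. With ChIP samples merged the window was -7.28, the Nkx2-9 segment -11.5, the outer start 7.33 kb, the outer end 0.667 kb and the Nkx2-9 end and width -19.7 and -27.6 kb. The Nkx2-1 minus Nkx2-9 segment difference was 15.4 under the score minimum, and the window minus left flank 1.32 at equal covered length. The score minimum and equal length drop whole islands and cannot move an edge. The cause of these changes was not tested.

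At 80% cover, 3 NK2 genes passed in all 6 livers. In settings added after seeing the data, tiles of 240 kb lower and higher in every TCPOBOP liver numbered 91 and 37 under the score minimum, 142 and 159 with lists of equal covered length and 51 and 36 with ChIP samples merged, against 286 and 98; with 1 liver left out, which loosens the rule, 378 to 1208 and 142 to 345.

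Same-numbered livers had deviations correlated at 0.23, 0.0949 and 0.475 over these tiles, the best match for vehicle replicates 2 and 3. Vehicle replicate 1 correlated best with TCPOBOP replicate 2 (0.284). Whether the numbers pair livers is thus not known, and the replicate block was run only as an alternative. With the replicate block the window difference of -4.06 had an exact permutation p of 0.5 (smallest possible 0.25), limma called 0 tiles, and no call changed.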
